A study of Rattus norvegicus with 2 samples.

Results

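Chromatin immunoprecipitation followed by sequencing (ChIP-seq) for specificity protein 1 (SP1) was performed in the left ventricle of wild-type male Sprague-Dawley rats whose treatment is given as sham, and the peaks that fell on chromosome 2 are described here. ChIP-seq crosslinks proteins to DNA, pulls down the fragments bound to 1 protein with an antibody and sequences them. There were 2 libraries, 1 from the SP1 immunoprecipitation (IP) and 1 from input chromatin taken without antibody, and both had the same strain, sex and treatment. The labels name primary cardiomyocytes as well as whole myocardium, and they state neither the age nor the number of the animals, whereas the study's text speaks of aged donor hearts. A peak list says nothing about which cells were present, so the cell type could not be checked.

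All rows of the IP peak list on chromosome 2 were taken, and rows with the same start and end were joined into 1 interval. This gave 421 intervals with 433 summits, out of 7129 intervals with 7525 summits in the whole list and 7049 intervals on the 20 numbered chromosomes. A summit is the point of highest signal within an interval, and an interval can hold several. Chromosome 2 was selected on its peak density, the lowest of the numbered chromosomes in this same list. Its density, its peak-free stretches and the crowding of its peaks are therefore descriptions, and no test was made on them. With 1 library per group no difference here has a replicate check. The intervals of error given are 95% intervals that cover counting error only.

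SP1 is a zinc finger transcription factor present in most cell types. It recognises GC-rich elements, of which the GC box GGGCGG is the best known, and it is found mainly at promoters, many of them of genes that are expressed in nearly every cell. In heart muscle it is known to act on promoters of metabolic and contractile genes. The study used the experiment to ask whether SP1 sits at the promoter of *Cirbp*, which encodes a cold-inducible RNA-binding protein. The submitters' processing notes name the genome build Rnor_6.0. The list, however, reaches position 12140105 on chromosome Y, which is beyond the end of that chromosome in Rnor_6.0, and its scaffold names belong to a later assembly, so the build is uncertain. Positions are printed as the list gives them, counted from 1. Genes, exons and introns under the peaks, and the sequence of the peaks, were not analysed here.

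Chromosome 2 was sparse in SP1 peaks for its length. It held 1.70 intervals per Mb (exact Poisson interval 1.54 to 1.87), counted up to its last interval at position 247101543. Chromosome 15, the next in order, held 1.85 per Mb, and its interval of error (1.59 to 2.14) overlapped that of chromosome 2. All other numbered chromosomes together held 3.01 per Mb (2.94 to 3.09), and chromosome 10 was highest with 6.34. The peaks of chromosome 2 covered 166 kb, or 670 bp of every Mb, against 1239 bp of every Mb on the other numbered chromosomes.

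The order of the chromosomes changed when intervals were set against genes. The RefSeq tables of the assembly GRCr8, which were used for the chromosome of each gene and for its promoter sequence and were not joined to peak positions, list promoters of 1200 protein-coding genes for chromosome 2. The list thus held 35.1 intervals per 100 protein-coding genes on chromosome 2 (31.8 to 38.6), 39.1 (lower limit 38.1) on the other 19 chromosomes together, and from 32.3 on chromosome 4 to 55.8 on chromosome 7 among them. By this measure chromosome 2 was still below the pooled value of the other chromosomes, but 7 chromosomes had smaller values. The letters GGGCGG or CCGCCC, the GC box read on either strand, occurred in the promoter window (250 bases before to 50 after the gene start) of 507 of the 1200 genes, or 42.3% (Wilson interval 39.5% to 45.1%), against 44.6% (43.8% to 45.3%) on the other chromosomes. Set against these GC box genes, chromosome 2 held 83.0 intervals per 100 (75.3 to 91.4) and the others 87.7 (85.6 to 89.9). Across the 20 chromosomes the number of intervals went with the number of protein-coding genes (Spearman's rho 0.90) more closely than with the length (rho 0.70). These 20 points share 1 library, and large chromosomes hold more of everything. The part of gene number in the low density was not tested, and the gene table is of another assembly than the list.

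**Figure D1:**
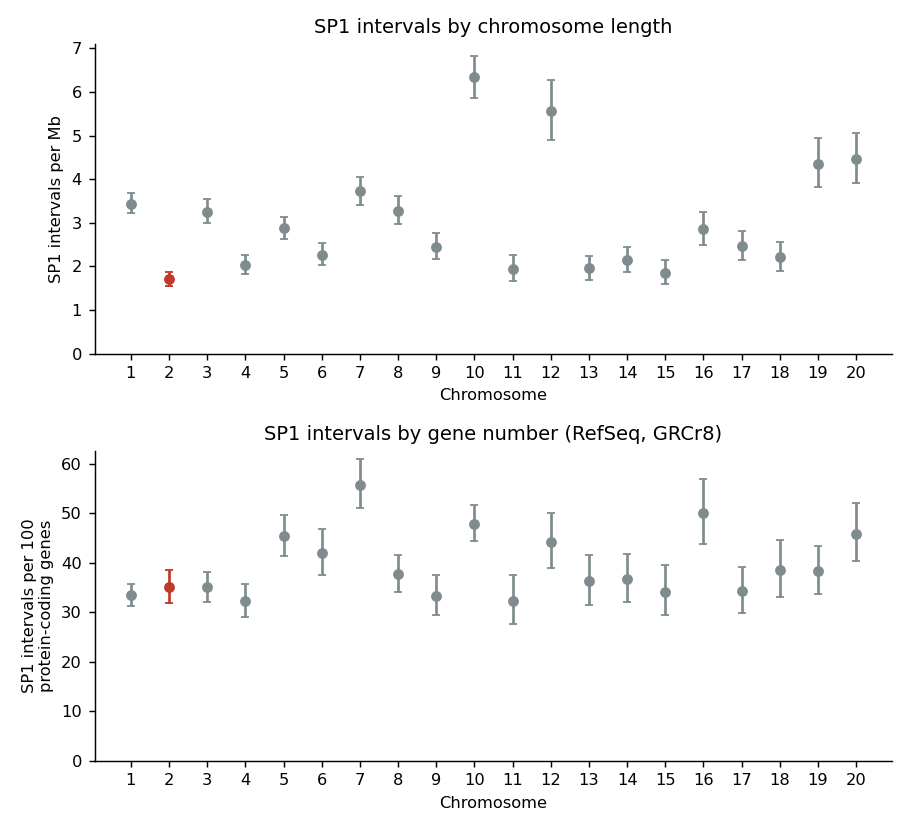
SP1 intervals on each numbered chromosome, per Mb up to its last interval (top) and per 100 protein-coding genes listed for it in RefSeq GRCr8 (bottom). Points are 1 library, bars are exact 95% Poisson intervals, and chromosome 2 is in red. Chromosome 2 is lowest in the top panel at 1.70 per Mb and lies among the others in the bottom panel at 35.1.

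Much of chromosome 2 carried no peak. In bins of 1 Mb counted from the first base, 114 of 248 bins, or 46.0%, were free of intervals, against 34.2% of the bins on the other numbered chromosomes and at most 43.6% on any one of them, on chromosome 15. A further 43 bins held 1 interval, 77 held 2 to 5 and 14 held 6 or more. The mean was 1.70 intervals per bin with a variance of 8.27. Between neighbouring intervals the median gap was 169 kb, the widest of the 20 chromosomes, ahead of 162 kb on chromosome 13.

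The longest stretch between 2 intervals ran from position 61348522 to 76100556, or 14.8 Mb, and was bordered by intervals of 10 and 9 tags. Tags are the sequenced fragments that the peak caller counted at a summit, and their numbers here were recovered from the deposited fold and p value. The next stretches were 10.5 Mb from position 124764503, 8.09 Mb from 102526234, 6.47 Mb from 153877173 and 6.46 Mb from 15940770. On the other 19 chromosomes 2 stretches exceeded 10 Mb, with 11.6 Mb on chromosome 15 and 10.8 Mb on chromosome 14 as their longest. Measured in units of the mean spacing of each chromosome, the longest stretch of chromosome 2 was 25.1 spacings, whereas chromosomes 19, 10 and 7 had longer ones with 36.2, 31.0 and 27.4. The length of the stretch in Mb thus stood out among the chromosomes, while its length relative to the density did not.

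In all, 65 stretches of at least 1 Mb between neighbouring intervals made up 68.9% of the chromosome up to its last interval, and the 10 longest made up 27.4%. The 3.84 Mb before the first interval, which no interval borders on the left, are not counted in either share, although they are longer than the last of these 10 at 3.75 Mb. The 20 intervals that border these 10 stretches had a median of 6 tags (range 4 to 14). A site that fell short of the threshold at this depth does not appear in the list, and neither does sequence to which reads could not be aligned. Whether the stretches lack SP1, genes or alignable sequence was not tested.

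**Figure D2:**
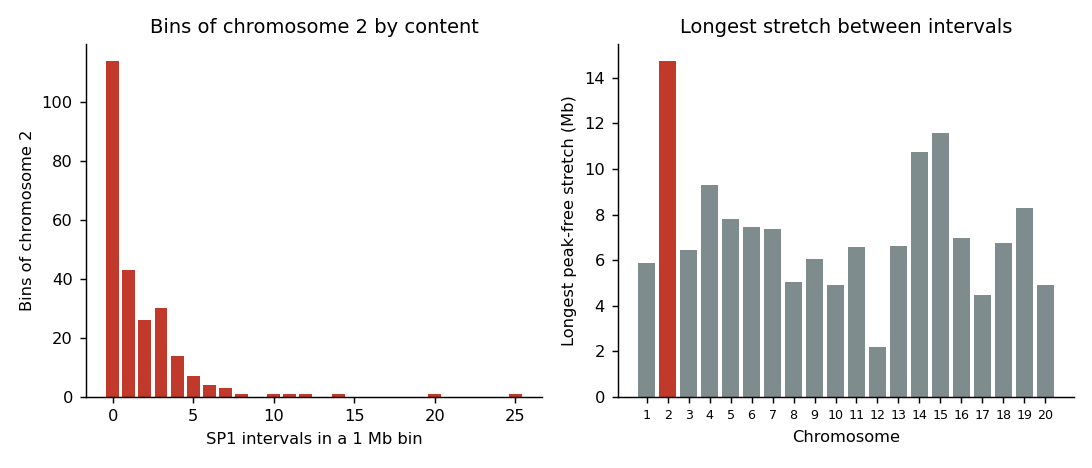
Left, number of 1 Mb bins of chromosome 2 by how many SP1 intervals they hold. Right, the longest stretch between neighbouring intervals on each numbered chromosome in Mb, with chromosome 2 in red. On the left 114 bins are empty and single bins reach 20 and 25 intervals, and on the right chromosome 2 is longest with 14.8 Mb.

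The density varied along the chromosome. The segment from 0 to 50 Mb held 84 intervals, or 1.68 per Mb (1.34 to 2.08). The segment from 50 to 100 Mb held 45, or 0.900 per Mb (0.656 to 1.20), and that from 100 to 150 Mb held 70, or 1.40 (1.09 to 1.77). The segment from 150 to 200 Mb was richest with 145 intervals, or 2.90 per Mb (2.45 to 3.41), and the last one held 77, or 1.63 (1.29 to 2.04). The counts were clustered, with a variance of 8.27 per bin against a mean of 1.70, so these Poisson intervals are too narrow for comparing segments. Of the 84 intervals of the first segment 25 lay within 93.3 kb. The richest segment held 41 intervals from 173 to 176 Mb and 26 from 182 to 184 Mb. Median fold did not follow this order, with 6.71 between 100 and 150 Mb and 5.60 between 150 and 200 Mb.

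The 10 fullest bins held 121 intervals, or 28.7% of the chromosome's. On the other numbered chromosomes this share ran from 21.2% to 58.0% with a median of 38.8%. The share depends on the number of bins, however, which was 248 here and 47 to 261 on the others. Chromosomes 1, 4, 3 and 5, with 261, 183, 169 and 167 bins, had 21.2%, 27.0%, 27.5% and 30.1%. The shares therefore do not show whether chromosome 2 was unusually concentrated. The 10 fullest bins of chromosome 2 fell into few places. The bin from 3 to 4 Mb held 25 intervals, the 3 bins from 173 to 176 Mb held 11, 20 and 10, and those from 182 to 184 Mb held 12 and 14, while only 2 intervals lay in the 6 Mb between the latter pair of regions. The bins from 195 to 197 Mb held 8 and 7, and those starting at 91 and 209 Mb held 7 each. Strong peaks were not concentrated there. Of the 121 intervals 8, or 6.61%, had a −log10 q of at least 10, compared with 45 of the 300 elsewhere on the chromosome, or 15.0%. The q value is the p value of a peak adjusted over the whole genome. Without the 25 intervals of the bin from 3 to 4 Mb the share in the fullest bins was 8.33%. The 53 strong intervals of chromosome 2 were scattered over 45 bins.

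The fullest bin of chromosome 2 differed from its other full bins in being compact. By number alone it did not stand out, since chromosomes 7, 16, 10 and 19 had 1 Mb bins with 42, 34, 28 and 26 intervals. The 25 intervals of this bin, 5.94% of the chromosome's, lay within 93.3 kb, from position 3838850 to 3932187. The 3.84 Mb before them held no peak, and the next interval followed after 1258 kb. In the bin from 174 to 175 Mb, by comparison, 20 intervals were spread over 865 kb. No 100 kb window elsewhere on chromosome 2 held more than 6 intervals, and on the other 19 chromosomes the most crowded windows held 4 to 11, the latter on chromosome 7 from position 9533299. The group was picked because it was crowded, so this is a description.

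The members of the group lay a median of 1.65 kb apart (range 0.198 to 12.3 kb), in a run of 11 intervals over 29.4 kb and a run of 13 over 39.9 kb with 1 interval between them. They were narrow and weak. Their median width was 279 bp against 342 bp on the rest of the chromosome, and their folds ran from 3.62 to 8.17 with a median of 5.28 against 5.89. Among the other full bins, those starting at 91, 183 and 195 Mb had lower median folds, 5.24, 5.05 and 4.67, and the rest had higher ones. The 25 intervals had 4 to 11 tags with a median of 7, as on the rest of the chromosome. None had several summits, and of the 396 intervals on the rest of the chromosome only 10, or 2.53%, had them. So small a share does not set the 25 apart in this respect. None had a −log10 q of at least 10, against 53 of the 396. A −log10 q of at least 5 was reached by 5 of 25, against 166 of the 396. The strongest reached a fold of 8.17 (4.42 to 14.1) with 11 tags, at position 3854473 to 3854839.

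Input was raised in the group, but not only there. The expected tags, which the peak caller takes from the input library and never lets fall under a genome-wide level of 0.326 tags, were a median of 1.31 times that level against 1.13 times on the rest of the chromosome. They reached at least 1.5 times the level at the best summit of 9 of the 25 intervals, or 36.0%, and of 35 of the 396 others, or 8.84%. The highest value in the group was 2.62 times. The bin from 183 to 184 Mb had nearly the same median expectation, 1.31 times, and the remaining fullest bins had 1.02 to 1.26 times. In the most crowded 100 kb of the other chromosomes the median expectation was 4.26 times on chromosome 4 and 1.00 to 1.22 times elsewhere. The fold is taken against this expectation, but with 1 added to both the tags and the expected tags. The expected tags in the group reached at most 0.855, so the added 1 dampens how far raised input lowers the fold. The part of raised input in the group was not tested, and neither was sequence that is repeated within it.

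**Figure D3:**
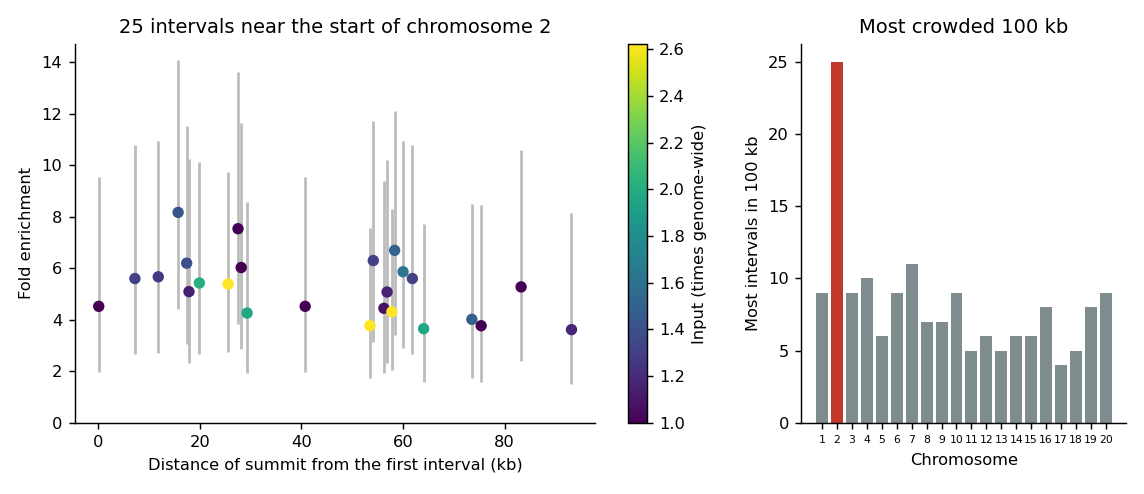
Left, fold enrichment of the 25 crowded intervals of chromosome 2 against the distance of each summit from the start of the first interval in kb. Bars are folds at the exact 95% Poisson limits of the tags, and colour gives the expected tags as a multiple of the genome-wide level. Right, the largest number of intervals in any 100 kb on each numbered chromosome. The folds on the left lie between 3.62 and 8.17 with wide, overlapping bars, and on the right chromosome 2 reaches 25 against at most 11 elsewhere.

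The group also added to the share of peaks on chromosome 2 that had a close neighbour. A neighbour within 10 kb was present for 95 of 421 intervals, or 22.6% (18.8% to 26.8%), compared with 23.8% (22.8% to 24.8%) on the other numbered chromosomes. Single chromosomes among these ran from 11.3% to 31.7%. Inside the group 24 of 25 had such a neighbour. Outside it 71 of 396 had, or 17.9% (14.5% to 22.0%), so that 1 place supplied 24 of the 95. The 17.9% is not comparable with the 23.8%, since no crowded place was left out on the other chromosomes. The neighbours outside the group were mostly pairs. The chromosome had 34 pairs and 1 run of 3, the latter at position 174837849 to 174850281.

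Of the 10 intervals of highest fold, the first, at position 233784448 to 233784969, had 30 tags and was enriched 21.9-fold (15.0 to 31.0 at the Poisson limits of its tags), which put it at rank 20 of the 7129 intervals of the list. Its only close neighbour, 248 bp before it at position 233783974 to 233784199, was the weakest interval of the chromosome with 4 tags, a fold of 3.51 and a q value of 0.0492. The second, at position 223868451 to 223869511, was 1061 bp wide and reached a fold of 20.8 (14.1 to 29.7) with 28 tags, so that the errors of these 2 peaks overlapped.

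The remaining 8 ran from a fold of 17.0 with 23 tags at position 26224416 to a fold of 13.1 (7.96 to 20.6) with 17 tags at position 209905249. In between were those starting at 135527954 with a fold of 16.6, at 31865225 with 16.5, at 11985396 with 15.1, at 153380855 with 14.3, at 226974787 with 14.1 and at 185257185 with 14.0. The intervals of all 10 overlapped one another, so their order is not fixed at this depth. Of the 10, 7 lay beyond position 100 Mb, as did 69.4% of all intervals of the chromosome. A neighbour within 10 kb was present for 1 of the 10 and for 22.6% of all, 1 of the 10 and 28.7% of all lay in a fullest bin, and 1 of the 10 and 2.38% of all had several summits. Such small counts do not set the 10 apart from the rest. The expected tags at their summits were 1.00 to 1.31 times the genome-wide level.

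**Figure D4:**
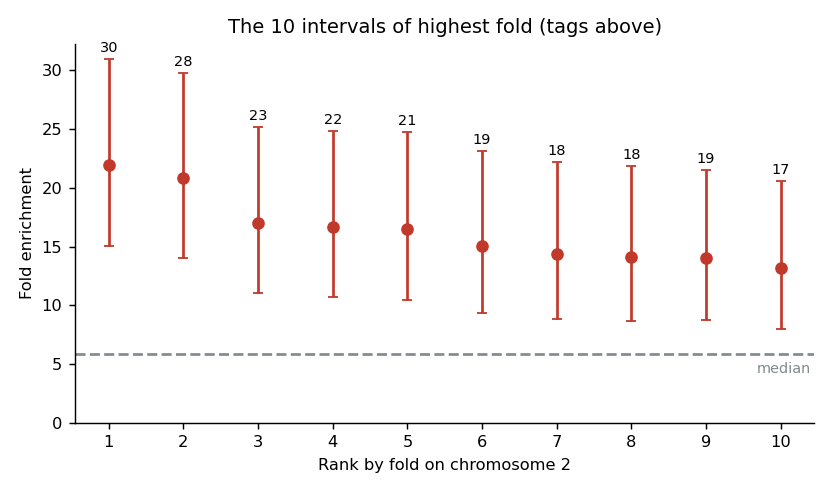
Fold enrichment of the 10 intervals of chromosome 2 with the highest fold, in rank order. Bars are folds at the exact 95% Poisson limits of the tags, numbers above are tags, and the dashed line is the median fold of the summits on the chromosome, 5.87. The bars overlap one another, and since the intervals were picked for their fold their place above the line is no result.

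As for strength, the peaks of chromosome 2 were close to those of other chromosomes. The median fold was 5.87 (5.60 to 6.03) with quartiles of 4.77 and 7.24, against a median of 6.02 (5.99 to 6.03) on the other 19, where single chromosomes ranged from 5.68 to 6.17. The median number of tags was 7 in both. A −log10 q of at least 10 was reached by 54 of 433 summits, or 12.5% (9.69% to 15.9%), and by 14.9% of the summits of all numbered chromosomes. Chromosome 2 was the second lowest in this share, after chromosome 10 with 11.5%. A fold of at least 10 was reached by 34 summits, or 7.85% (5.67% to 10.8%), and by 8.82% of the summits of all numbered chromosomes. The highest number of tags at a summit of chromosome 2 was 30. On the other 19 chromosomes 42 summits, or 0.600%, had more, a share that 0 of 433 allows since its limit is 0.693%, and chromosomes 7, 9, 13, 18 and 20 had none above 30 either. Tags of 7 or fewer lay behind 244 summits, or 56.4% (51.6% to 60.9%), against 53.1% (51.9% to 54.2%).

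Width followed tags. The median width was 342 bp (322 to 354 bp) with quartiles of 244 and 479 bp and a range of 192 to 1184 bp, against 355 bp (349 to 361 bp) on the other numbered chromosomes, where medians ran from 323 to 386 bp. Intervals under 250 bp made up 27.3% of those on chromosome 2 and had a median of 6 tags, those of 250 to 500 bp made up 50.1% with 7 tags, and those of 500 to 1000 bp made up 21.4% with 9 tags. The strong intervals had a median width of 514 bp, against 320 bp for the others. Only 5 intervals reached 1000 bp.

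Local input is known only at the summits. The expectation lay at the genome-wide level at 119 summits, or 27.5% (23.5% to 31.9%), against 30.5% (29.4% to 31.6%) on the other numbered chromosomes. No summit had 5 times that level or more, and 0 of 433 allows a share of up to 0.693%, which does not separate chromosome 2 from the 0.643% (0.481% to 0.859%) on the others. The highest expectation was 3.28 times the genome-wide level, at position 43323616 to 43324185, where 9 tags gave a fold of 4.83.

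Few intervals of chromosome 2 held several summits. There were 8 with 2 summits and 2 with 3, together 2.38% of the 421 (Wilson interval 1.30% to 4.32%), and the other numbered chromosomes had 341 of 6628, or 5.14% (4.64% to 5.70%). These 2 intervals of error did not overlap. Chromosome 13, however, had nearly the same share with 2.40%, and the interval of error of each single chromosome overlapped that of chromosome 2 except for chromosomes 6, 9 and 16. When only summits with a −log10 q of at least 5 were counted, 7 of 171 intervals on chromosome 2, or 4.09%, and 8.45% (7.49% to 9.52%) on the others still had several, and the upper limit for chromosome 2 was 8.21%. When only summits with at least 10 were counted, 1 of 53, or 1.89% (0.334% to 9.94%), and 50 of 1001 (3.81% to 6.52%) had several. The intervals of error overlapped at both thresholds. When only summits with a fold of at least 5 were counted, 9 of 290, or 3.10% (1.64% to 5.79%), and 320 of 4659, or 6.87% (6.18% to 7.63%), had several, and these intervals of error did not overlap. Among intervals of 500 bp or more the shares were 10.5% (5.82% to 18.3%) of 95 and 18.6% (16.8% to 20.5%) of 1747, which also overlapped. The direction was the same in each of these sets.

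The 10 intervals with several summits were 509 to 1157 bp wide, and 81 intervals with a single summit were as wide as the narrowest of them. The interval at position 119037963 to 119039119 had summits of 9, 15 and 12 tags with folds of 7.15, 11.5 and 9.35, the middle one being highest, 411 and 306 bp from its neighbours. The other with 3 summits, at position 142646060 to 142646977, had 9, 9 and 8 tags with folds of 7.35, 7.32 and 6.61, a difference of 1 tag at most. Among the pairs, the interval at position 185257185 to 185257748 was most unequal in tags, with 19 and 9, and that at position 51523645 to 51524153 had 7 tags at both summits 108 bp apart. Over all 10 intervals, neighbouring summits lay a median of 323 bp apart (range 108 to 659 bp).

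**Figure D5:**
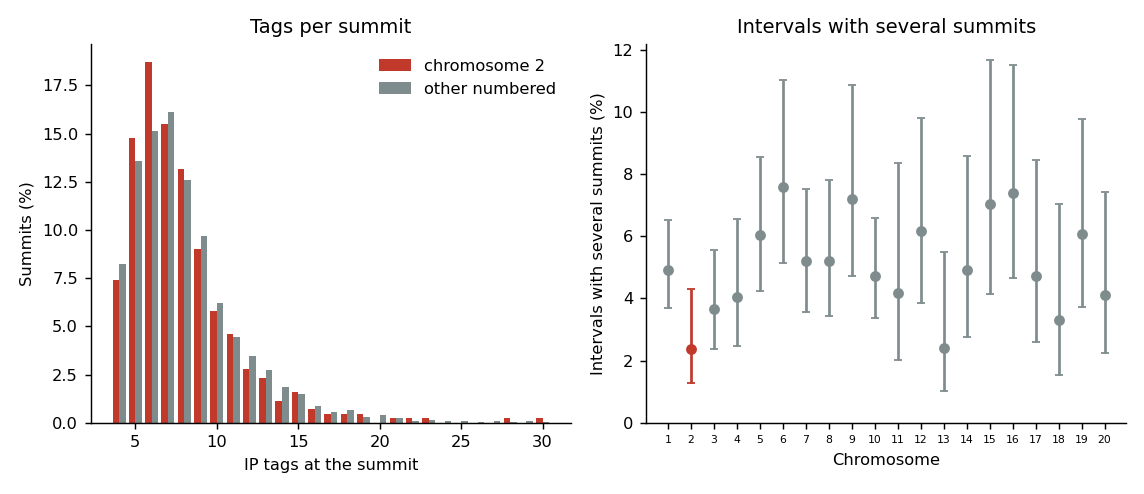
Left, share of summits by number of IP tags for chromosome 2 (red) and the other 19 numbered chromosomes (grey), drawn up to 30 tags, above which only the others have summits. Right, share of intervals with several summits on each numbered chromosome with Wilson 95% intervals. Both distributions on the left peak at 6 or 7 tags, and on the right chromosomes 2 and 13 are lowest with 2.38% and 2.40%.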

How the data were processed

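The data are 1 peak list of the SP1 IP library from rat left ventricle. Crosslinking used 1% formaldehyde for 10 minutes, with 15 cycles of amplification and paired reads of 150 bases. The submitters' processing notes name fastp 0.20.0, FastQC, Bowtie2 2.2.6, SAMtools 1.10, MACS2 2.2.7.1, ChIPseeker, DiffBind and HOMER 4.11, without settings, and the build Rnor_6.0. The authors called peaks on the single IP library. The fold enrichment they deposited is a linear ratio of IP to the background expectation. Its values match a ratio with 1 added to both, the formula given below, so it is smaller than tags over expected tags. The p-value and q-value were deposited by the authors as −log10 values. The deposited score is a whole number derived from the q-value and was not used.

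Rows were joined into intervals, and bins, gaps, widths and summits were derived in pandas 2.3.3 and numpy 2.4.6 under Python 3.11.15, with intervals of error from scipy 1.17.1. Tags were recovered by assuming a fold of (tags + 1)/(expected tags + 1) and a Poisson p, with a tolerance of 0.0002 in −log10 p. All 7525 summits had exactly 1 match. In 2000 summits simulated with these same formulas, 100% of the tags were recovered. Such a run checks the computation and not the formulas, and its tags did not reach the highest of the list. Total depth is unknown. Medians carry order-statistic intervals, shares Wilson and counts exact Poisson ones. The limit of 0.693% given for 0 of 433 summits is not a Wilson limit but 3 counts over 433. The Wilson limit for 0 of 433 is 0.879%. Intervals were placed in bins by their midpoint.

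The chromosome and the lists were chosen with earlier results of these data known. Of 13 planned results 9 were computed. The other 4, on gene starts, gene density and GC boxes at summits, need a genome or gene positions in the list's own build. They were not analysed here, nor were the planned gene names. The counts per gene from RefSeq GRCr8, the crowded group and the neighbours were added after the data were seen.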

Additional observations from a re-analysis of the deposited data

How the results depend on the processing

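Thresholds moved most values. The density of 1.70 intervals per Mb was 0.692, 0.214 and 1.17 with a −log10 q of at least 5, of at least 10 and a fold of at least 5, and chromosome 2 was the lowest numbered chromosome in each. In the same order the median width went from 342 bp to 441, 514 and 375 bp, the median tags from 7 to 10, 13 and 8, the peak-free bins from 46.0% to 63.3%, 81.9% and 55.2%, and the share with a neighbour within 10 kb from 22.6% to 12.3%, 0% and 18.6%. The median fold of 5.87 was 7.62 and 10.6 at the 2 q thresholds, and the longest peak-free stretch of 14.8 Mb was 16.2 and 22.7 Mb. These settings remove weak peaks by construction. Bins of 0.5 and 2 Mb gave 61.0% and 26.6% peak-free bins and 23.0% and 35.9% of intervals in the 10 fullest, against 28.7%. The latter share was 34.0% at the stricter q threshold. Without the 25 crowded intervals, an alternative added after seeing the data, as were those for neighbours, the share with a neighbour was 17.9%, and the other results stayed within their intervals of error. The share of intervals with several summits and that of summits at the genome-wide expectation stayed within theirs in all of these settings. Among intervals of 500 bp or more, a set chosen by width, the share with several summits was 10.5% and lay outside.

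The assembled length of the chromosome and the 4 results that need positions of the build were not run. With 1 library in each group there was no replicate to leave out. No paired analysis was possible because neither group has a second library. The listed summits of chromosome 2 had at least 4 tags, and weaker sites are not seen.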
